A study of Mus musculus with 6 samples.

Results

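The gene set described here holds 44 genes of DNA replication and mitosis, chosen by name: 22 replication factors, 16 genes of mitosis, E2F1 with the 2 E-type cyclins, and the 3 D-type cyclins. Of these, 43 had a probe set with 1 gene symbol and were measured among 18193 genes in all. Ccnb1 was not measured and enters only the counts of promoter windows, among the mitosis genes. The arrays, which report 1 signal for each set of short DNA probes, measured RNA from the uterine horn of ovariectomized female mice 8 weeks old. They fall into 3 arrays after P4, the usual abbreviation of progesterone, and 3 after Oil, its vehicle. Mice of both groups were of mixed background and carried the GATA2 f/f genotype, a conditional allele of the transcription factor GATA2. The labels name no recombinase, dose or time of treatment, and do not say whether the arrays of a group came from separate animals, so the p-values measure the spread between these arrays only. Whole horn RNA holds epithelium, stroma, muscle, vessels and blood cells, and a lower value in it cannot tell fewer cells of a type from less RNA per cell.

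Before a cell divides it copies its genome once. The MCM proteins are loaded on origins as an inactive helicase by CDC6 and CDT1, are switched on with CDC45 and the GINS proteins, and are followed by polymerases that a sliding clamp, PCNA, holds on the DNA. D-type cyclins act first, by relieving the block that the retinoblastoma protein places on E2F factors, which switch on replication genes and cyclin E. A later wave of genes for mitosis follows, many of them carrying a promoter element called the cell cycle genes homology region (CHR). In the mouse uterus, estrogen drives the epithelium through this sequence, and progesterone is known to hold epithelial cells back, with effects on cyclin D1 and on MCM loading.

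Median intensities of the 6 arrays lay between 117 and 123, on the linear scale of the deposited values. Stromal, smooth muscle and epithelial markers were bright, with median levels at percentiles 98.3, 97.9 and 91.0 of all genes, as the labelled tissue holds these cells. P4 against Oil was tested with limma on log2(intensity + 16), and a gene passed at a Benjamini-Hochberg adjusted p under 0.05 over all 18193 genes. Of the 43 genes 1 passed, the cyclin D1 gene Ccnd1, which was lower after P4. That is 2.33% of the set, against 13.0% of all genes tested, 6.94% lower and 6.08% higher after P4. With the replicate number as a block, which sets each P4 array against the Oil array of the same number, 8 of 43 passed (18.6%), against 20.9% of all genes. Of these, 7 were lower after P4 and 1 was higher, and over all genes 11.6% were lower and 9.29% higher in that fit. The 3 P4 arrays lay wholly below the 3 Oil arrays for 5 of the 43 and wholly above them for 0, against 17.5% and 14.3% of all genes (31.8% in all). In each of these counts over both directions the share of the set was below that of all genes, and the share lower with the block, 16.3%, was above it. The median log2 difference was 0.04 over the 43 genes and -0.01 over all genes tested.

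**Figure D1:**
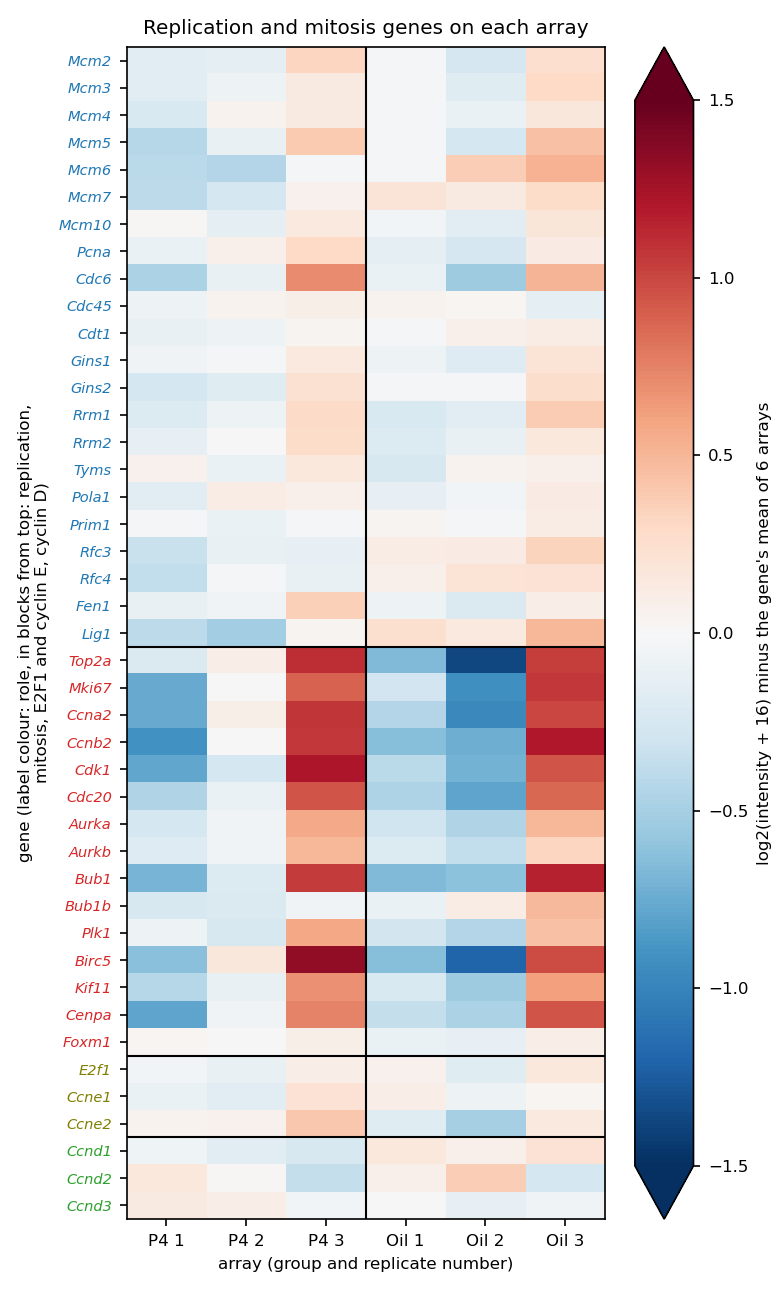
Intensity of the 43 measured genes on each array, as log2(intensity + 16) minus the gene's mean of the 6 arrays (colour, red high and blue low), with the 3 P4 arrays left of the 3 Oil arrays and the genes in blocks by role. All 15 measured mitosis genes were highest on array 3 within each group, while the D-type cyclins were not.

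Among the 22 replication genes 0 passed without the block (5 at an unadjusted limma p under 0.05, all lower, against 26.6% of all genes at that p and 14.7% lower), and 5 passed with it, all lower after P4: Mcm6, Mcm7, Rfc3, Rfc4 and Lig1. These 5 are all the calls of the list in that fit, 22.7% of it. Of all genes 20.9% were called in either direction and 11.6% lower. Markers of other cells moved in the same fit: 5 of 13 epithelial markers were lower (38.5%) and 2 higher, 2 of 8 endothelial markers lower (25.0%) and 0 higher, and 2 of 12 stromal markers lower and 4 higher, and the part of these cells in the lower replication genes was not tested. The other 17 did not pass in either fit, and their log2 differences ran from -0.14 for Gins2 to 0.19 for Pcna. The list's median log2 difference was -0.01, as over all genes. Leaving out dim genes before the adjustment let 2 of the list pass without the block with the dimmest 30% left out (Lig1 and Rfc3, against 20.4% of all genes kept) and 3 with the dimmest 50% left out (Lig1, Mcm6 and Mcm7, against 26.3%). Robust moderation let 2 pass (Lig1 and Rfc3, against 14.1% of all genes), quantile normalization 1 (Mcm7, against 12.8%) and median centring 1 (Lig1, against 12.5%).

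The 6 subunits of the MCM2-7 helicase gave unequal readings. Mcm6 had intensities of 435, 422 and 575 after P4, against 568, 752 and 841 after Oil. The P4 values were lower within each replicate number, but P4 array 3, at 575, stood above Oil array 1, at 568. Its mean was 477 ± 84.9 after P4, against 721 ± 139 after Oil (SD, n = 3 each), a log2 difference of -0.57 ± 0.17 (SE) with a limma adjusted p of 0.0640, and of 0.00656 with the block. Mcm7 read 1336, 1462 and 1848 after P4, against 2013, 1944 and 2141 after Oil, with no overlap between the groups. Its log2 difference was -0.40 ± 0.12 (adjusted p 0.0677, 0.0159 with the block). The neighbouring subunits of the same ring gave other values. Mcm2 had 507, 509 and 712 after P4, against 558, 471 and 675 after Oil, which overlap fully, and a difference of 0.02 ± 0.17 (adjusted p 0.970, 95% interval -0.37 to 0.41). Mcm5 had 319.9, 401 and 576 after P4, against 428, 359 and 596 after Oil, with a difference of -0.10 ± 0.24. For Mcm3 and Mcm4 the differences were -0.06 ± 0.14 and -0.03 ± 0.12, and the P4 array lay above the Oil array in number 2 alone for Mcm3, Mcm4 and Mcm5. Whether Mcm6 or Mcm7 differed from its sister subunits in its response was not tested.

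The loading and activation factors had no member that passed. Cdc6, which brings the helicase to the origin together with Cdt1, was dim and variable, at 30.7, 43.8 and 89.9 after P4, against 44.5, 29.0 and 76.3 after Oil. Array 3 was the highest in both groups and lay 2.93-fold above the lowest array after P4 and 2.64-fold after Oil. Cdt1 was steadier, at 518, 534 and 578 after P4, against 552, 592 and 607 after Oil, a log2 difference of -0.10 ± 0.08 (adjusted p 0.524). For Mcm10, Cdc45, Gins1 and Gins2, which take part in switching the helicase on, the differences were 0.01, 0.04, 0.05 and -0.14. Adjusted p values of these 4 genes were 0.644 or above.

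At the fork, the clamp and the proteins that load it gave different readings. Pcna, the sliding clamp, was the brightest of the replication genes, at 1762, 2000.2 and 2334 after P4, against 1703, 1585 and 2054 after Oil. P4 was the higher array within each replicate number, yet the groups overlapped, and the difference of 0.19 ± 0.13 did not pass (adjusted p 0.434, 0.136 with the block, 95% interval -0.11 to 0.49). Rfc3, a subunit of the clamp loader replication factor C, had 90.0, 108 and 107 after P4, against 129, 129.7 and 153 after Oil. All 3 P4 values lay below all 3 Oil values, with a difference of -0.38 ± 0.11 (adjusted p 0.0544, 0.0231 with the block). Rfc4, another subunit of the loader, had 148, 192 and 179.7 after P4, against 207, 228 and 229.9 after Oil. It too showed no overlap, with a difference of -0.33 ± 0.11 (adjusted p 0.0948, 0.0304 with the block). Pola1 and Prim1, subunits of the polymerase and primase that start each strand, had differences of 0.02 ± 0.11 and -0.10 ± 0.08 (adjusted p 0.932 and 0.515).

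Lig1, the ligase that joins Okazaki fragments, had the largest decrease in the set as measured by the log2 difference. Its intensities were 306, 276 and 415 after P4, against 481, 448 and 577 after Oil, again without overlap. The mean was 332 ± 73.4 after P4, against 502 ± 67.2 after Oil (SD, n = 3 each), a difference of -0.58 ± 0.16 (adjusted p 0.0508, 0.00302 with the block). Fen1, the nuclease that trims the same fragments before ligation, had 392, 411 and 549.9 after P4, against 404, 365 and 459 after Oil, a difference of 0.13 ± 0.14 (adjusted p 0.666). Of the genes for DNA precursors, Rrm1 and Rrm2, the subunits of ribonucleotide reductase, had differences of 0.00 ± 0.19 and 0.11 ± 0.14. Tyms, which makes thymidylate, had 0.08 ± 0.12. The lowest adjusted p among these 3 was 0.707, for Rrm2.

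**Figure D2:**
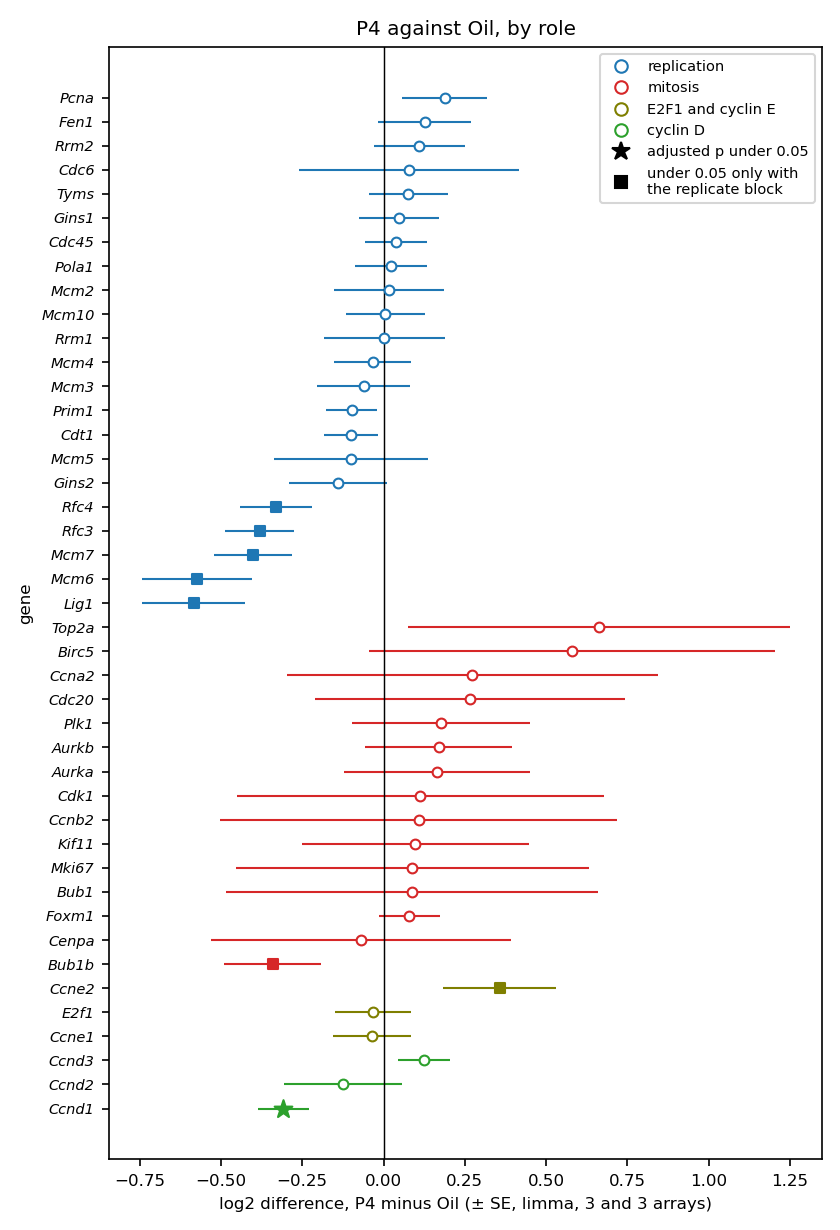
The log2 difference of P4 minus Oil for each of the 43 genes (points, with limma SE as bars, 3 arrays in each group), in blocks by role and ordered within each block. Ccnd1 is the 1 gene past the threshold without the block (star), and filled squares mark the 7 that passed only with the replicate number as a block.

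By the difference between the groups, 11 of the 22 replication genes were higher after P4 and 11 lower. Within replicate numbers they leaned lower in numbers 1 and 3 but not in number 2. The P4 array was the higher one for 6 of 22 genes in number 1, 13 of 22 in number 2 and 7 of 22 in number 3, against 47.1%, 46.3% and 49.1% of all genes. P4 was lower in all 3 numbers for 8 of 22 (36.4%, against 28.2% of all genes), which are the 5 genes named above with Cdt1, Gins2 and Prim1, and higher in all 3 for 2, Pcna and Rrm2 (9.09%, against 23.8%). For Rrm2 this held on the probe set used only.

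**Figure D3:**
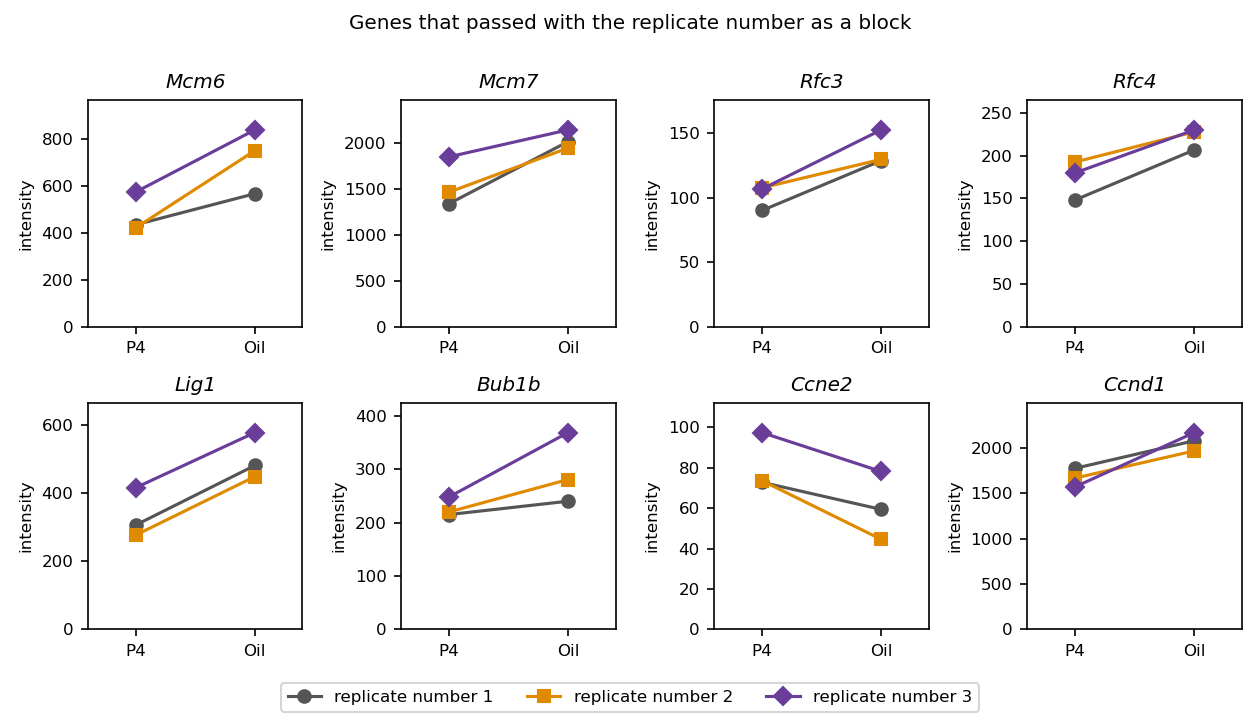
Intensity (linear scale from 0) after P4 and after Oil for the 8 genes that passed with the replicate number as a block, with a line joining the arrays of 1 number. Every line slopes the same way within a gene, with the P4 end lower for 7 genes and higher for Ccne2. The fit that chose these genes favours differences that agree over the numbers, so the shared slopes are no separate result.

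The start regions of 4 of the 5 lower replication genes are shown because each carries a match to an E2F motif, the element through which E2F factors are known to act on replication genes. The windows run from 250 bases before to 50 after the RefSeq start, on build GRCm38.p6, 5′ to 3′ on the gene's strand, with the motif matches in capitals. Mcm6 lies at chr1:128359656-128359955 on the reverse strand, Mcm7 at chr5:138171834-138172133 on the reverse strand, Rfc3 at chr5:151651159-151651458 on the reverse strand and Lig1 at chr7:13278576-13278875 on the forward strand.
Mcm6: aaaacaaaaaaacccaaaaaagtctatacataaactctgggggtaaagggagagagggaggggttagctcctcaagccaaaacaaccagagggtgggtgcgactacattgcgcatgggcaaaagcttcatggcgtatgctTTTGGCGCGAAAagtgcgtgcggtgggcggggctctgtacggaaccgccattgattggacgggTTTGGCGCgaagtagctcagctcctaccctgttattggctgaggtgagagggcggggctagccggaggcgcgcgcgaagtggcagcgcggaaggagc
Mcm7: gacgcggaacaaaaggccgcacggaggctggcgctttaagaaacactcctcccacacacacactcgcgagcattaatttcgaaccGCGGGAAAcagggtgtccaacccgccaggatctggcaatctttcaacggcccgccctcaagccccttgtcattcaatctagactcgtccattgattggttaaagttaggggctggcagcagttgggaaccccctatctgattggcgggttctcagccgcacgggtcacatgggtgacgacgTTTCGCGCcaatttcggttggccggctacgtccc
Rfc3: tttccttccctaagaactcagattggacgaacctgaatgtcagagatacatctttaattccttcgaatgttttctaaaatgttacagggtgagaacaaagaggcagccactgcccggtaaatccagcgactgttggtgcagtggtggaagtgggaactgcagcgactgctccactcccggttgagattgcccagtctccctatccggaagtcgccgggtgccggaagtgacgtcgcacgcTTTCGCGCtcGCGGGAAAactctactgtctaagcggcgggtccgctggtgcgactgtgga
Lig1: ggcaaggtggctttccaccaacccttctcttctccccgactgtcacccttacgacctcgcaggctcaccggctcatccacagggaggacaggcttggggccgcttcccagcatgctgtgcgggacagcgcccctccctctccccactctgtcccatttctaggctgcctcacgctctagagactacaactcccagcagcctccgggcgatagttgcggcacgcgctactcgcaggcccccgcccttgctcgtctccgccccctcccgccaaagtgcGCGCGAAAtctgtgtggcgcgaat
The motif searched was TTTNNCGC on either strand, where N is any base. Mcm6 had 3 matches, of which 2 overlap each other, Mcm7 and Rfc3 had 2 each and Lig1 had 1. RefSeq gives Lig1 3 windows and Mcm7 2, and the one shown for each gene was chosen because it alone holds a match. Of 19 replication genes with a window, 10 held a match in at least 1 window, against 5.93% of 27025 genes in the RefSeq table. Besides the 4 shown, these were Cdc6, Cdt1, Mcm3, Mcm5, Pola1 and Tyms, which passed in neither fit. Rfc4, the remaining lower gene, had a window without a match. Among 13 mitosis genes with a window 1 held a match, Cdk1. Whether the motif relates to the lower values was not tested. Windows were found for 35 of the 44 genes. A match is a run of letters and not a measured binding site.

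For the mitosis genes, the usual spread between arrays of 1 group was larger than the usual difference between the groups. None of the 15 measured passed without the block, where 0 also had an unadjusted limma p under 0.05, and 1 passed with it, Bub1b. Of all genes 13.0% passed without the block, 26.6% had an unadjusted p under 0.05 and 20.9% passed with the block. The list's median log2 difference was 0.11, with 13 genes higher after P4 and 2 lower, against 8681 and 9512 of all genes. Its median SD between arrays of a group was 0.81 on the log2 scale, against 0.19 for the replication genes and 0.13 for all genes, and 13 of the 15 had an SD above the 95th percentile of all genes. The median SE of the list was 0.48 without the block and 0.14 with it, against 0.13 and 0.08 for the replication genes.

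Mki67, the antigen used to mark cycling cells, had 139, 247 and 467 after P4, against 199, 123 and 532 after Oil. Array 3 was highest in both groups, and the mean was 285 ± 167 after P4, against 285 ± 217 after Oil (SD, n = 3 each), a log2 difference of 0.09 ± 0.54 (adjusted p 0.948, 95% interval -1.17 to 1.34). Top2a, the topoisomerase that untangles replicated chromosomes, had 381, 478 and 978 after P4, against 274, 164 and 927 after Oil. On P4 arrays 1 and 2 it stood above Oil arrays 1 and 2, and on arrays 3 the values were close. Its difference of 0.66 ± 0.59 was the highest of the set and did not pass (adjusted p 0.560, 0.0831 with the block, 95% interval -0.70 to 2.02).

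The cyclins and kinase that drive entry into mitosis followed the same order of arrays. Cdk1, the mitotic kinase, had 187, 275 and 793 after P4, against 248, 198 and 654 after Oil. Ccna2, its A-type cyclin, had 105, 202 and 416 after P4, against 134, 88.7 and 394 after Oil, and the B-type cyclin Ccnb2 had 67.0, 142 and 311 after P4, against 84.8, 78.4 and 343 after Oil. In each of these 3 genes both arrays numbered 3 stood above the other 4, and array 2 exceeded array 1 after P4 but lay below it after Oil. The log2 differences were 0.11 ± 0.56 for Cdk1, 0.27 ± 0.57 for Ccna2 and 0.11 ± 0.61 for Ccnb2, with adjusted p values of 0.937, 0.837 and 0.943. Foxm1, a transcription factor for mitosis genes, varied far less, at 86.2, 85.2 and 90.4 after P4, against 77.5, 76.3 and 91.9 after Oil (0.08 ± 0.10, adjusted p 0.687). Its SD between arrays stood at the 26.2nd percentile of all genes, while those of Cdk1, Ccna2 and Ccnb2 were above the 99.4th.

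Among the kinases and spindle proteins, Birc5, the survivin of the chromosomal passenger complex, had a wide range, at 103, 191 and 448 after P4, against 102, 64.0 and 348 after Oil. Its highest array was 4.33 times its lowest after P4 and 5.43 times after Oil, and its difference was 0.58 ± 0.62 (adjusted p 0.648). Aurkb, the kinase of the same complex, had 43.2, 49.3 and 79.5 after P4, against 42.5, 36.4 and 68.5 after Oil (0.17 ± 0.23). Aurka and Plk1, kinases of the spindle poles, had differences of 0.16 ± 0.29 and 0.18 ± 0.28. Kif11, a spindle motor, and Cenpa, the centromeric histone, had 0.10 ± 0.35 and -0.07 ± 0.46. The smallest adjusted p among these 6 genes was 0.648.

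In the spindle checkpoint, Bub1 and Bub1b differed in their readings. Bub1, a checkpoint kinase, had 35.9, 57.1 and 158 after P4, against 37.3, 39.1 and 172 after Oil (0.09 ± 0.57, adjusted p 0.952). Bub1b, which encodes the checkpoint protein BubR1, had 215, 219.8 and 248 after P4, against 240.0, 281 and 369 after Oil. Its P4 value was the lower one in each replicate number, and P4 array 3 stood above Oil array 1. The difference was -0.34 ± 0.15 (adjusted p 0.195, 0.0445 with the block), and its other 2 probe sets were also lower after P4, by -0.48 and -0.32. Cdc20, the activator of the complex that ends mitosis, had 205, 265 and 565 after P4, against 202, 158 and 533 after Oil (0.27 ± 0.48, adjusted p 0.805).

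**Figure D4:**
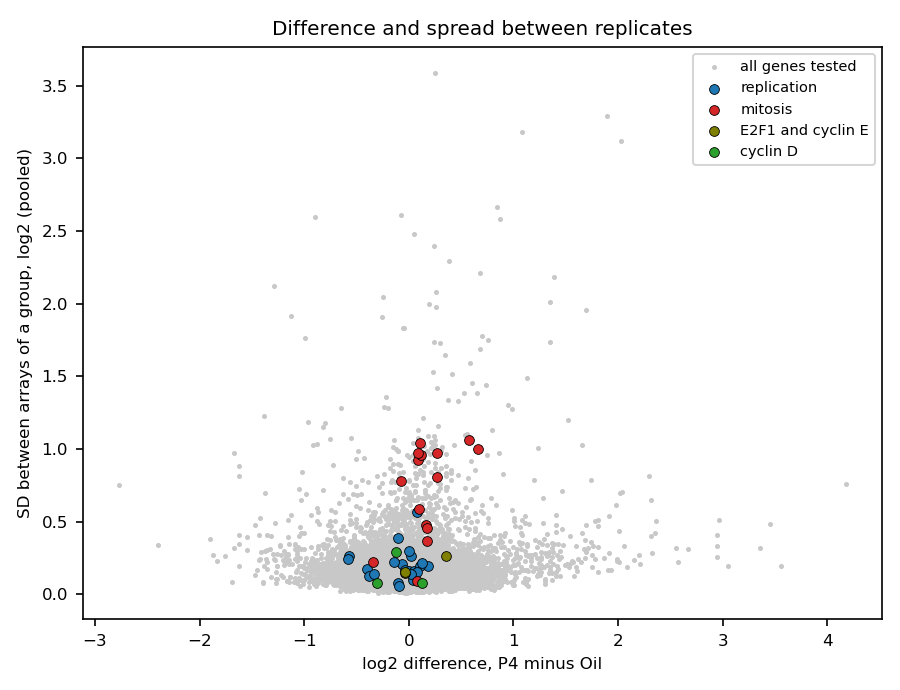
The log2 difference of P4 minus Oil (horizontal axis) against the pooled SD between arrays of a group in log2 units (vertical axis) for the 43 genes by role, over all 18193 genes in grey. The mitosis genes (red) sit high, at a median SD of 0.81, with 13 differences above 0 and 2 below. The D-type cyclins (green) have a median of 0.08, with Ccnd2 higher, at 0.29.

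What the mitosis genes shared was their order over arrays, which crossed both groups. All 15 were highest on array 3 within both groups, against 23.2% of all genes, and for 14 of 15 both arrays numbered 3 stood above the other 4, against 13.2%, with Bub1b the exception. Among replication genes the counts were 18 and 13 of 22, and among D-type cyclins 0 and 0 of 3. The median deviation from each gene's mean of 6 arrays was -0.45, -0.05 and 0.88 on P4 arrays 1 to 3, against -0.36, -0.62 and 0.94 on Oil arrays 1 to 3 (log2). Array 2 was thus the array on which the groups stood furthest apart. There the P4 array was the higher one for 14 of 15 genes, against 7 of 15 in number 1 and 9 of 15 in number 3. P4 was higher in all 3 numbers for 6 of 15 (40.0%, against 23.8% of all genes) and lower in all 3 for 1 (6.67%, against 28.2%). A further list of 45 measured mitosis factors had 41 genes highest on array 3 in both groups and 39 with both arrays numbered 3 above the other 4.

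Other cell markers moved with these arrays. Of 14 measured leukocyte markers 9 were highest on array 3 in both groups, and their summed intensity was 1960, 11393 and 15302 on P4 arrays 1 to 3, against 2519.9, 3600.0 and 12073 on Oil arrays 1 to 3. The neutrophil genes S100a8 and S100a9 made up much of that sum on the arrays where it was high, and were named after their values were seen. S100a8 read 6.39, 11.74 and 12.25 on P4 arrays 1 to 3, against 6.43, 6.33 and 11.53 on Oil arrays 1 to 3, as log2(intensity + 16). Of 13 epithelial markers 9 were highest on array 3 in both groups, with sums of 14931 to 23338 after P4 and 18415 to 22131 after Oil. Stromal markers had 5 of 12, with sums of 53475 to 65255 after P4 and 57102 to 63607 after Oil, and smooth muscle markers had 0 of 10. Endothelial markers had 1 of 8, with sums of 5789.7 to 5959 after P4 and 6075 to 7105 after Oil. No marker of these lists was at 0 on any array. The ratio of 3′ to 5′ probe sets for Gapdh, a sign of RNA quality, was 2.37, 1.50 and 1.73 on P4 arrays 1 to 3, against 1.84, 1.56 and 1.53 on Oil arrays 1 to 3. For actin it was 2.60, 1.73 and 2.23 on the P4 arrays, against 2.27, 1.97 and 2.06 on the Oil arrays. The part of these markers, or of RNA quality, in the order of the mitosis genes was not tested. Without the block, 13.0% of all genes passed. Of 13 epithelial markers 1 passed (7.69%), Cldn3, which rose (1.21 ± 0.12), while 7 of the 13 had lower values after P4 and 6 higher ones (median -0.05). Of 12 stromal markers 3 passed (25.0%): Hoxa11 (0.89 ± 0.08) and Hand2 (0.50 ± 0.10) rose and Lum fell (-0.90 ± 0.18). Of 8 endothelial markers 1 passed (12.5%), Tek, which fell (-0.38 ± 0.10). All 8 had lower values after P4 (median -0.24), 6 of them in all 3 replicate numbers (75.0%, against 28.2% of all genes). No leukocyte or smooth muscle marker passed in either fit, against 13.0% of all genes without the block and 20.9% with it.

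**Figure D5:**
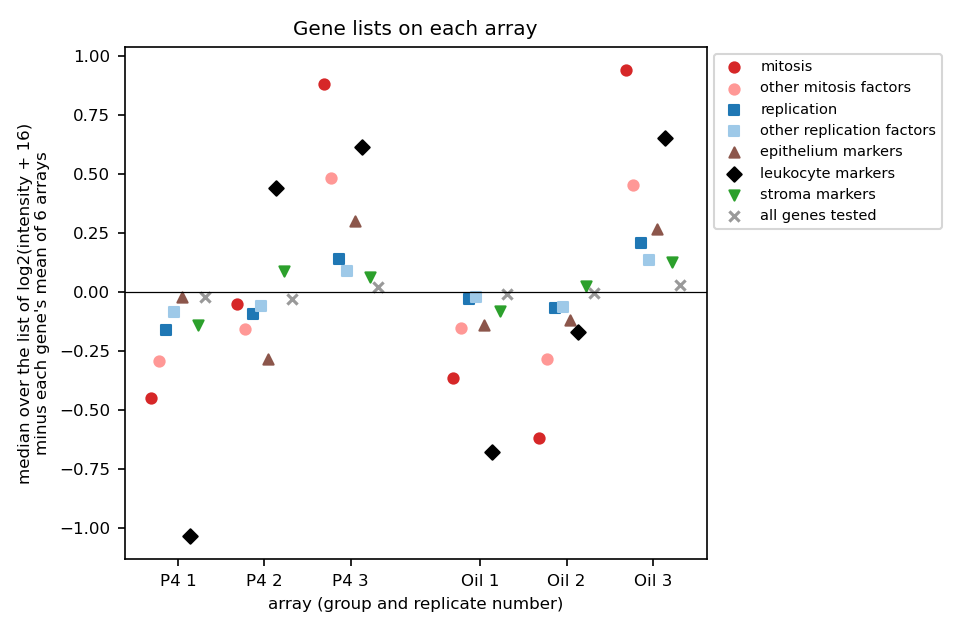
Median over each gene list of log2(intensity + 16) minus the gene's mean of 6 arrays (vertical axis), on the 3 P4 and the 3 Oil arrays. The mitosis list reads 0.88 on P4 array 3 and 0.94 on Oil array 3, and leukocyte markers are also high on both of these arrays and on P4 array 2.

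The start regions of 4 mitosis genes are shown, picked among those whose windows hold both CHR and CCAAT matches. Both elements are known to serve the promoters of such genes. Birc5 held neither match, and Bub1 and Ccnb1 held CCAAT but no CHR match. Whether the motifs relate to the order of the arrays was not tested. Windows, build and strand follow the same rule as above. Cdk1 lies at chr10:69352863-69353162 on the reverse strand, Ccnb2 at chr9:70421505-70421804 on the reverse strand, Top2a at chr11:99024140-99024439 on the reverse strand and Mki67 at chr7:135716330-135716629 on the reverse strand. Capitals mark TTTGAA (the CHR) and CCAAT on either strand.
Cdk1: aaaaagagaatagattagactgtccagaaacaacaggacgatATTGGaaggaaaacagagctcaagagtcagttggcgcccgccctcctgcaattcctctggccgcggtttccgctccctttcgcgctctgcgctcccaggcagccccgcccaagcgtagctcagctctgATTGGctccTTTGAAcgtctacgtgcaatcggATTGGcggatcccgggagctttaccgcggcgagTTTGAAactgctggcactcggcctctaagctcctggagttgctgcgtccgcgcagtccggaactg
Ccnb2: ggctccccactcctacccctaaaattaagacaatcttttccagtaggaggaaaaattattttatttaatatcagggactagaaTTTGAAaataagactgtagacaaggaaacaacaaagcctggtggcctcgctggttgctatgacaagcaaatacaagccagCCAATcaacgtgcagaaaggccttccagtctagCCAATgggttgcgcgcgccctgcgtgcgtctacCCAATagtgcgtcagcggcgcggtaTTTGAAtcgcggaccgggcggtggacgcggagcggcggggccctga
Top2a: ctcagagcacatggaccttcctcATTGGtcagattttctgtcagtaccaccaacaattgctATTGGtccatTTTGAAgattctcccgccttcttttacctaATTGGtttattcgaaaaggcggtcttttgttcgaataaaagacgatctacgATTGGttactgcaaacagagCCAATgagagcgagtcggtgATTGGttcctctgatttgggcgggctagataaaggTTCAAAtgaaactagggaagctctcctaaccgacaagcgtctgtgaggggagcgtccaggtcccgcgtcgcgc
Mki67: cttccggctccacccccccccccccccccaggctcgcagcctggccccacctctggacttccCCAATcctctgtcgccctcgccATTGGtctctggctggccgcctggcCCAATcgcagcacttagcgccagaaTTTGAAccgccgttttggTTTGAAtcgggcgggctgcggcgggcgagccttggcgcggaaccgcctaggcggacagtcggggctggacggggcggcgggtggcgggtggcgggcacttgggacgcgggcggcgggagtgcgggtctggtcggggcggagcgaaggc
Each of the 4 windows held 2 CHR matches, and a CHR match was a condition of the choice. Those of Cdk1 began 71 and 15 bases before the start, and those of Mki67 116 and 98 bases before it. CCAAT occurred 3 times in Cdk1, 3 times in Ccnb2, 6 times in Top2a and 3 times in Mki67. Over the list, 10 of 13 mitosis genes with a window held a CHR match, against 3 of 19 replication genes and 20.2% of all genes with a window. A CCAAT was found in 12 of 13 mitosis genes and 13 of 19 replication genes, against 41.1% of all genes. The motifs are short, and these counts describe letters only.

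E2f1 and the E-type cyclins act between the D-type cyclins and replication. E2f1 had 69.9, 65.7 and 78.0 after P4, against 76.4, 61.5 and 82.6 after Oil, with overlapping groups and a log2 difference of -0.03 ± 0.12 (adjusted p 0.910). Ccne1 was as close, at -0.04 ± 0.12 (adjusted p 0.903). Ccne2 had 72.8, 73.6 and 97.5 after P4, against 59.4, 44.5 and 78.2 after Oil. The P4 value was the higher one in each replicate number, though P4 arrays 1 and 2 stood below Oil array 3. The difference of 0.36 ± 0.17 had an adjusted p of 0.245, and of 0.0452 with the block. All 3 genes were dim, with mean levels below the 31st percentile of genes.

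Of the D-type cyclins, which activate CDK4 and CDK6, Ccnd1 fell after P4. It had 1778, 1671 and 1574 after P4, against 2083, 1971 and 2173 after Oil, without overlap. The mean was 1674 ± 102 after P4, against 2075 ± 101 after Oil (SD, n = 3 each), a log2 difference of -0.31 ± 0.08 and 0.808 times the Oil level (adjusted p 0.0380, 0.0265 with the block). The call was close to the threshold. It was lost without P4 array 2 or 3 or any 1 Oil array, where the adjusted p reached 0.128, and was kept without P4 array 1 (0.0312). With scaling to the hybridisation controls the adjusted p was 0.202 (14.0% of all genes passed), with median centring 0.0505 and without a trend in the moderation 0.0564 (12.3%). The 2 other probe sets of Ccnd1 were lower after P4 as well, by -0.40 and -0.25.

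Ccnd2 and Ccnd3 did not pass. Ccnd2, at 2051, 1851 and 1428 after P4, against 1932, 2378 and 1531 after Oil, was lowest on array 3 in both groups, and its difference was -0.12 ± 0.18 (adjusted p 0.753, 95% interval -0.54 to 0.30). Ccnd3, by its brightest probe set, had 1051, 1027 and 931 after P4, against 955, 877 and 924 after Oil (0.12 ± 0.08, adjusted p 0.399). Its probe sets disagreed. A dimmer one read 119, 137 and 121 after P4, against 236, 221 and 222 after Oil, a difference of -0.78 ± 0.09 with an adjusted p of 0.00212 over 34945 probe sets. The remaining probe set of Ccnd3 had -0.10 ± 0.11.

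Over the set, 34 genes had more than 1 probe set, with 62 probe sets beside those used. Of these 62, 22 had the opposite sign to the one used, and 2 of them had an unadjusted limma p under 0.05 as well, the dimmer Ccnd3 probe set and 1 of Top2a (-0.48 ± 0.14, adjusted p 0.0645). The other probe sets of Rfc4, Mcm6 and Mcm7 had the sign of those used, with smaller differences. For Mcm6 these were -0.32 and -0.03, for Mcm7 -0.19, -0.34 and -0.26, and for Rfc4 -0.11. The other probe sets of Rrm2 had larger differences, of 0.47 ± 0.50 and 0.28 ± 0.39, and on both P4 was the lower array in number 1.

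Around the set, 117 measured genes of 5 further lists of cell cycle factors held 3 that rose and 5 that fell, 6.84% against 13.0% of all genes. Among 7 CDK inhibitors 2 fell and 0 rose. Cdkn1b, which encodes p27, had 1832, 1564 and 1679 after P4, against 2669, 2577 and 2352 after Oil, with no overlap. Its log2 difference was -0.58 ± 0.09 (adjusted p 0.00570), and the call was kept with each array left out in turn (up to 0.0347). Cdkn2c, which encodes p18, an inhibitor of CDK4 and CDK6, had 694, 645 and 689 after P4, against 913, 1016 and 872 after Oil, also without overlap. The difference was -0.46 ± 0.09 (adjusted p 0.0128, up to 0.0591 with 1 array left out). With the block Cdkn1c was lower as well (-0.55 ± 0.13, SE and adjusted p of 0.0245 from that fit) and Cdkn1a, which encodes p21, higher (0.47 ± 0.08, 0.00520), both named after their values were seen.

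Of 11 CDKs and CDC25 phosphatases 1 rose and 1 fell. Cdk6, a partner of the D-type cyclins, had 602, 799 and 777 after P4, against 1154, 1061 and 1186 after Oil, a difference of -0.64 ± 0.12 (adjusted p 0.0120). Cdc25a, the phosphatase that activates CDK2, had 492, 417 and 519 after P4, against 337, 280.1 and 386 after Oil (0.49 ± 0.13, adjusted p 0.0488). In both genes the groups did not overlap. Both calls were lost with at least 1 single array left out, at an adjusted p of up to 0.0517 for Cdk6 and 0.154 for Cdc25a. The Cdc25a call was also lost without a trend in the moderation (adjusted p 0.0523). With its probe sets averaged the difference was 0.28 (adjusted p 0.0916). Cdk4, the other kinase partner of the D-type cyclins, had 1573, 1849 and 2141 after P4, against 1395, 1376 and 1723 after Oil. The P4 value of Cdk4 was the higher one in each replicate number, though P4 array 1 stood below Oil array 3. Its log2 difference of 0.30 ± 0.13 passed only with the block (adjusted p 0.198, 0.0283 with the block). The choice to describe Cdk4 was prompted by this result.

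Of 19 genes of the RB, E2F and DREAM group, 1 rose and 1 fell, both partners of E2F proteins. Tfdp1 had 1891 ± 198 after P4, against 1332 ± 216 after Oil (0.51 ± 0.13, adjusted p 0.0444). Tfdp2 had 502 ± 80.5 after P4, against 719 ± 19.8 after Oil (-0.52 ± 0.12, adjusted p 0.0257). Of 35 other replication factors, Tipin, which protects stalled forks, rose (0.44 ± 0.12, adjusted p 0.0478), and Orc5, a subunit of the origin recognition complex, fell (-0.33 ± 0.08, adjusted p 0.0370). These 4 calls were lost with at least 1 single array left out, at adjusted p up to 0.160. Of 45 other mitosis factors 0 passed, with 2 at an unadjusted limma p under 0.05 and 2 passing with the block, against 13.0%, 26.6% and 20.9% of all genes. The brightest, Pttg1, which encodes securin, had 3034 ± 271 after P4, against 3544 ± 195 after Oil (-0.23 ± 0.09, adjusted p 0.137). Bub3, a checkpoint protein, had 1697 ± 184 after P4, against 1407 ± 68.2 after Oil (0.26 ± 0.09, adjusted p 0.114, 0.0470 with the block).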

How the data were processed

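RNA of the uterine horn was extracted with a QIAGEN RNeasy kit and biotin-labelled cRNA was prepared from total RNA for Affymetrix arrays, per the labels' protocols. The deposited values are 1 linear intensity for each of 45101 probe sets and array. The sources used here do not give the authors' summary or scaling method. Array medians differed by 0.06 log2, so no further normalization was applied. Control probe sets (64) were left out. The platform annotation gave 1 gene symbol to 34945 probe sets, several to 932 and none to 9160. The probe set of highest mean log2 value stood for each of 18193 genes.

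Intensities were tested as log2(intensity + 16) with limma 3.58.1 (lmFit, eBayes with trend, R 4.3.3) over all 6 arrays, and p-values were adjusted by Benjamini-Hochberg over all genes. The number of arrays limits the precision. Same-numbered P4 and Oil arrays deviated together from their group means (r across genes 0.53, 0.13 and 0.64), each above 0.1, and the numbers were therefore treated as pairs. No label says what a number marks, and Oil array 2 correlated more with P4 array 1 (0.29). No 2 arrays held the same values. Named genes of the further lists are those that passed, or the 2 brightest where none did, and the marker lists are named by up to 2 genes that passed, with Lum added after its value was seen. Members, lists and tests were chosen with earlier results of these data known. Promoter windows are from RefSeq (GRCm38.p6). Alternatives covered scaling, pseudocount, dim genes, probe sets, moderation, the replicate block, and arrays or replicate numbers left out.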

Additional observations from a re-analysis of the deposited data

How the results depend on the processing

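Counts of genes that passed depended on single arrays and on the replicate block. Over all genes the count was 2368, with the replicate number as a block 3801, and with arrays or a replicate number left out 171 to 2302. For the replication genes it was 0 as reported, 1 with quantile normalization (Mcm7), 1 with median centring (Lig1), 2 without the dimmest 30% of genes (Lig1 and Rfc3), 3 without the dimmest 50% (Lig1, Mcm6 and Mcm7), 2 with robust moderation, 5 with the replicate block, and 0 to 3 with arrays left out. The mitosis genes had 0, 1 with the block and 0 with every array or number left out. E2f1 and the E-type cyclins had 0, 1 with the block and 0 with every array or number left out. The D-type cyclins had 1, 0 with median centring, 0 with scaling to the hybridisation controls, 0 without a trend in the moderation, and 0 to 1 with arrays left out. The 5 further lists had 8, 5 without the trend, 15 with the block and 0 to 7 with arrays left out; the lowest came without both arrays numbered 2. The causes were not tested. The block added the 7 calls named above and changed no other call of the 43 genes. Of 43 genes, 13 kept their sign under all 21 alternatives and 30, none of which had passed without the block, did not. No gene that had passed changed direction. Under scaling to the hybridisation controls the median log2 difference over all genes shifted by 0.13, with 75.5% of all calls higher after P4, against 46.7% as reported. The precision for the mitosis genes depends on the block, with a median SE of 0.14 with it and 0.48 without it.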
